A study of Homo sapiens with 6 samples.

Results

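The genes described here code for the chains of integrins and laminins. They were taken by name from the deposited tables: gene symbols that begin with ITGA or ITGB and a letter or digit, or with LAMA, LAMB or LAMC and a digit, without pseudogenes, antisense genes and the integrin-binding proteins named after ITGB1 and ITGB3. This gave 39 of the 51103 genes measured: 18 integrin alpha chains, 8 integrin beta chains, the integrin-like gene ITGBL1 and 12 laminin chains. The rule uses names and no measured value.

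Laminins are large cross-shaped proteins of the basement membrane, each built from an alpha, a beta and a gamma chain and named by the numbers of these chains, so that laminin-511 holds the chains of LAMA5, LAMB1 and LAMC1. Integrins are receptors of an alpha and a beta chain that span the plasma membrane, bind matrix outside and connect to actin, or for α6β4 to keratin filaments, inside. In epithelium such as that of the stomach, α3β1, α6β1 and α6β4 (with α7β1 in muscle) bind laminins, α1β1 and α2β1 bind mainly collagens, and α5β1 and the αv pairs bind fibronectin, vitronectin and other proteins with an RGD motif.

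The study sequenced polyadenylated RNA of 2 human gastric cancer lines, AGS and HGC-27, bought from a cell bank and given a lentivirus that carried NINJ1 (ninjurin-1, a plasma membrane protein of cell adhesion and lytic cell death) or a negative control. Cells were lysed after 48 hours, and each line had 1 control library and 2 libraries labelled NINJ1, 6 in all. The promoter of the vector, and whether the cells were a clone or a pool, are not given in the sources used here. Nothing in the labels says that libraries of a group came from separate cultures, so the p-values rest on the spread among libraries, which may be technical. Lines are named as in the file names. The titles give the opposite line for 2 libraries, those numbered NINJ1 replicate 2. In the libraries called AGS here the matrix protein gene FN1 had an FPKM of 0.770 (control), 0.265 and 0.257, and in those called HGC-27 9.13 (control), 5.29 and 5.50, so that by this gene, which is no integrin or laminin, each replicate 2 lay with the line of its file name. FPKM is the number of fragments relative to the length of the gene and the depth of the library, so genes of different length can be compared. It is not corrected for GC content, the share of G and C bases in a transcript. Differences from the HGC-27 control moved with GC content, as given below. Shares and ratios of FPKM between genes in that library may carry this dependence and are given without correction. Values are given in the order control, NINJ1-labelled 1, NINJ1-labelled 2.

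The targeted gene did not follow its label in AGS. NINJ1 had an FPKM of 10.9, 7.81 and 6.29 in AGS (log2 difference -0.68, standard error (SE) 0.19, adjusted p = 0.0148) and 1.48, 6.88 and 7.53 in HGC-27 (1.89, SE 0.24, adjusted p = 3.22e-08, and 0.61 with adjusted p = 0.0282 after the GC correction). These and all later adjusted p-values are from edgeR (quasi-likelihood F tests, Benjamini-Hochberg adjustment over 17617 genes), unless another tool is named. A gene's count does not tell transcripts of the vector from those of the genome. The libraries are therefore called NINJ1-labelled, and no difference between them and a control is read as an effect of more NINJ1.

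Total counts ran from 12619684 to 18175697, and 22839 to 23396 genes had a count in 5 libraries against 19371 in the HGC-27 control. Differences from that library moved with the GC content of the transcripts, as given for HGC-27, so values after a correction for GC content follow them. Of 10 epithelial markers 7 reached an FPKM of 1 in some library (summed FPKM 171 to 219 in AGS and 267 to 355 in HGC-27), led by keratins KRT7, KRT8 and KRT18, while CDH1, which codes for E-cadherin, was at most 0.454 and KRT19 at most 0.034. Of 8 gastric and intestinal markers 1 reached an FPKM of 1 (HNF4A). Markers of other cells were low: summed FPKM was at most 2.55 for 9 leukocyte markers, 10.9 for 7 fibroblast markers and 0.715 for 5 endothelial markers, and CD3E, PDGFRA and KDR had no count in any library. In bulk RNA, fewer cells that express a gene and less RNA of it per cell cannot be told apart.

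Promoter windows of 300 bases, from 250 before to 50 after a start site, were found in RefSeq (GRCh38.p14) for 27 of the 39 genes. Those of the laminin-511 chains are shown because this was the trimer with the highest levels, and those of LAMA3 and LAMB3, chains of the epithelial laminin-332, because LAMB3 differed between the lines in the direction opposite to LAMB1. They lie at chr20:62367263-62367562 (minus strand, LAMA5), chr7:108003112-108003411 (minus, LAMB1), chr1:183023170-183023469 (plus, LAMC1), chr18:23872770-23873069 (plus, LAMA3) and chr1:209651325-209651624 (minus, LAMB3). LAMB3 has 3 windows, and the one that holds TGANTCA was chosen. Capitals mark GGGCGG, the GC box that Sp1-type factors read, or its other strand CCGCCC, and TGANTCA, the core site of AP-1 factors.
LAMA5: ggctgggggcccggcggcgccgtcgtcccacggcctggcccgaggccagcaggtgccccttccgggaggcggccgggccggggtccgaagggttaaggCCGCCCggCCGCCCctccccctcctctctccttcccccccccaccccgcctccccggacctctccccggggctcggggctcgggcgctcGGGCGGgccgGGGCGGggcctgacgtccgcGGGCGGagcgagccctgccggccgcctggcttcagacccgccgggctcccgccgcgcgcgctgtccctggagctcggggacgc
LAMB1: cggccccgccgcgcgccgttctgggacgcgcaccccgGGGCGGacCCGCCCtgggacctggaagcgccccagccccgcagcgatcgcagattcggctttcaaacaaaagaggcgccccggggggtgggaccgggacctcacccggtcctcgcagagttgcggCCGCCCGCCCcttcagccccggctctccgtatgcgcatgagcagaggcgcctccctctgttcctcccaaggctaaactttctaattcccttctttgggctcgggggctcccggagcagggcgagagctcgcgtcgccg
LAMC1: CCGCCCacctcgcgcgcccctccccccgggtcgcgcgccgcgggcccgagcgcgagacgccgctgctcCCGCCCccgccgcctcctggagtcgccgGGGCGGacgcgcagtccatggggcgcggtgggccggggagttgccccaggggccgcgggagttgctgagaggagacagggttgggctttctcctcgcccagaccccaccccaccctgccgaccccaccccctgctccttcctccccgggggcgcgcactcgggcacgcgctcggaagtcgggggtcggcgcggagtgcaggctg
LAMA3: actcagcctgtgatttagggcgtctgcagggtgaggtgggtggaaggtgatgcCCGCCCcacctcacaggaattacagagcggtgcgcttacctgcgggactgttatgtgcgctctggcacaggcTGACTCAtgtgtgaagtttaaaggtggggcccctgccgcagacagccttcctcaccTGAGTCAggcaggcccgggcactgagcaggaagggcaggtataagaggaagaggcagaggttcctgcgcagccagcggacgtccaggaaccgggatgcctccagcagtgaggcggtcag
LAMB3: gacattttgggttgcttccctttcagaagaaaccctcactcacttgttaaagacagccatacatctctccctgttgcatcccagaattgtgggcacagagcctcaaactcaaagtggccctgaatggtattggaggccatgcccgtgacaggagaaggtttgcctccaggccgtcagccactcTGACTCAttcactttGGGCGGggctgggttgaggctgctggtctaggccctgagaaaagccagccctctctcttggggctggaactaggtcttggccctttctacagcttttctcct
GGGCGG stood 5 times in the LAMA5 window, 4 times in that of LAMB1 (with 2 copies that share bases) and 3 times in that of LAMC1. TGANTCA stood 2 times in the LAMA3 window and 1 time in that of LAMB3, and no copy of it overlapped a GC box. Over both strands, GGGCGG was in 45.0% and TGANTCA in 7.71% of all 35116 windows. Of the 34 windows of the 27 genes, 20 held GGGCGG and 3 held TGANTCA. Counted by gene, where some have several windows, 15 held GGGCGG and 3 held TGANTCA, which were ITGA5, LAMA3 and LAMB3. A match describes the letters and is no evidence of binding.

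The laminin chains fell into 6 with an FPKM of at least 5 in some library (LAMA5, LAMB1, LAMB2, LAMB3, LAMC1 and LAMC3) and 6 under that. LAMA5 (ENSG00000130702, chromosome 20, 62307955 to 62367312, minus strand, as all positions below in GENCODE 29 on GRCh38) codes for the main alpha chain of adult epithelial basement membrane. Its FPKM was 94.3, 50.5 and 40.9 in AGS and 10.9, 93.8 and 99.9 in HGC-27. The HGC-27 control stood alone at the low end, and the AGS control lay with the NINJ1-labelled HGC-27 libraries at the high end. LAMA5 made up 94.9% to 97.6% of the summed FPKM of the 5 alpha chains in 5 libraries and 78.0% in the HGC-27 control. The other alpha chains were low: LAMA3 ran from 1.08 to 1.78, LAMA1 (the alpha chain of early embryos) from 0.601 to 1.29, and LAMA2 and LAMA4, chains of muscle and of vessels, stayed at or under 0.159.

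Among beta chains, LAMB1 (ENSG00000091136, chromosome 7, 107923799 to 108003255, minus strand), the chain of laminin-511, had an FPKM of 62.2, 56.2 and 57.4 in AGS and 36.7, 24.7 and 21.9 in HGC-27. The ranges of the lines did not overlap. The edgeR test over all 6 libraries called LAMB1 only after GC correction (adjusted p = 0.07 before and 0.0147 after). LAMB3 (ENSG00000196878, chromosome 1, 209614870 to 209652466, minus strand), known from laminin-332, had 28.0, 19.6 and 20.7 in AGS and 24.5, 46.1 and 48.8 in HGC-27. Here the NINJ1-labelled HGC-27 libraries were the highest, and the HGC-27 control lay inside the AGS range of deposited FPKM. The place of that control among the libraries can change with library scaling, as for ITGAV and ITGA2 below. The ratio of LAMB1 to LAMB3 was 2.22, 2.87 and 2.77 in AGS and 1.50, 0.535 and 0.449 in HGC-27, so that LAMB1 led in AGS and in the HGC-27 control and LAMB3 led in the NINJ1-labelled HGC-27 libraries. LAMB2, the beta chain of synapses and the kidney filter, was lower than both in every library (6.84, 4.24 and 3.58, then 3.72, 6.93 and 6.91), and LAMB4 had at most 1 count.

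LAMC1 (ENSG00000135862, chromosome 1, 183023460 to 183145592, plus strand), the gamma chain of most laminins, had an FPKM of 39.1, 34.5 and 32.9 in AGS and 48.0, 33.0 and 30.2 in HGC-27. It varied least among the chains above FPKM 10 in all libraries. LAMC3 (ENSG00000050555, chromosome 9, 131009082 to 131094473, plus strand), a gamma chain best known from brain, eye and skin, had 22.1, 15.5 and 13.9 in AGS and 1.41, 8.85 and 8.27 in HGC-27, so that every AGS library lay above every HGC-27 library. The edgeR test over all 6 libraries called this gene only after GC correction (adjusted p = 0.178 before and 0.00307 after). LAMC3 held 29.7% to 36.1% of the summed gamma chain FPKM in AGS, 2.86% in the HGC-27 control and 21.1% and 21.5% in the NINJ1-labelled HGC-27 libraries.

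**Figure D1:**
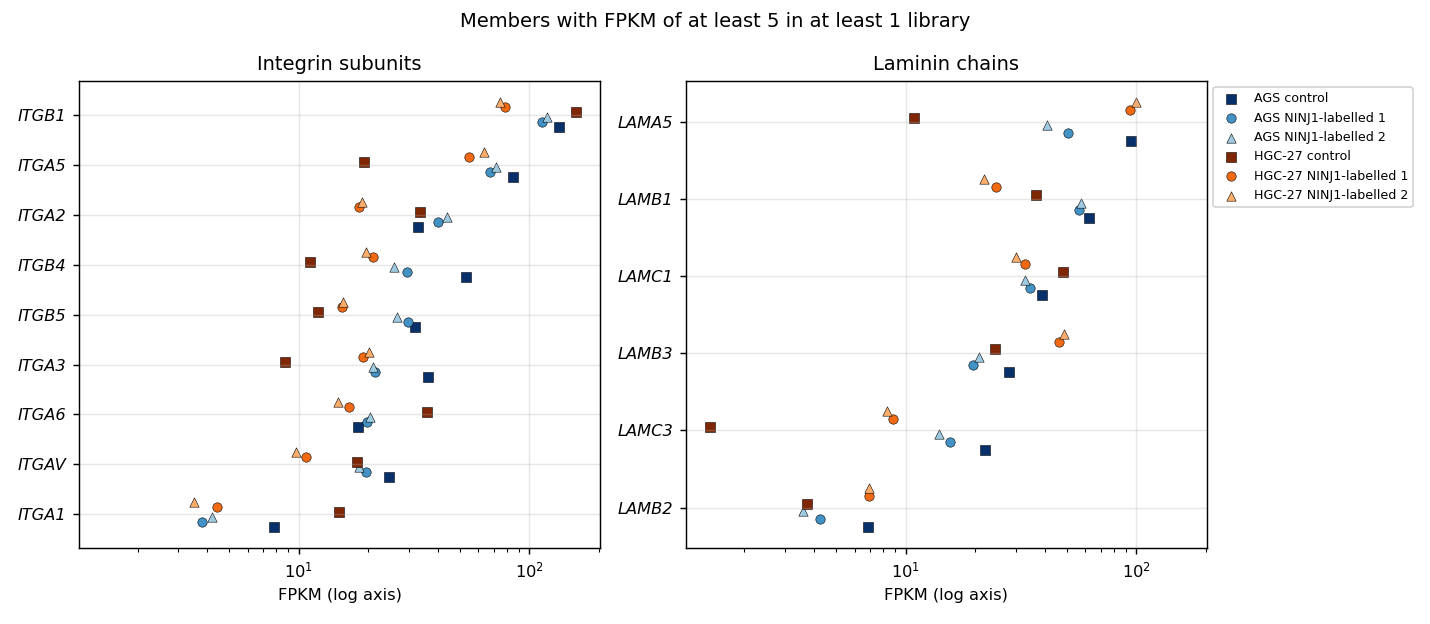
FPKM (log axis) of the 15 genes with an FPKM of at least 5 in at least 1 library, 9 integrin subunits on the left and 6 laminin chains on the right. Each point is 1 library, squares are controls, blue is AGS and orange is HGC-27. LAMA5 runs from 10.9 in the HGC-27 control to 99.9, and ITGB1 is the most abundant integrin chain in all 6 libraries.

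Integrin chains with an FPKM of at least 5 in some library numbered 9. ITGB1 (ENSG00000150093, chromosome 10, 32900319 to 33005792, minus strand), the beta chain shared by most matrix receptors, was the highest, with 134, 113 and 120 in AGS and 159, 78.0 and 74.8 in HGC-27. It made up 60.6% to 68.5% of the summed beta chain FPKM in 5 libraries and 85.9% in the HGC-27 control. ITGB4 (ENSG00000132470, chromosome 17, 75721328 to 75757818, plus strand), which pairs only with α6 and anchors hemidesmosomes, had 53.0, 29.4 and 25.9 in AGS and 11.1, 21.1 and 19.6 in HGC-27. ITGB5, partner of αv, had 31.8, 29.8 and 26.6 in AGS and 12.1, 15.4 and 15.5 in HGC-27. For ITGB4 and ITGB5 every AGS library lay above every HGC-27 library in deposited FPKM, as for ITGA3, ITGA5 and ITGAV below. The share of all genes that separate the lines in this way was not counted. For ITGAV the separation was lost when FPKM was rescaled by edgeR's TMM factors. The HGC-27 control (22.4) then lay above AGS NINJ1-labelled 1 and 2 (18.4 and 17.4). In the edgeR test over all 6 libraries ITGB5 was called (adjusted p = 0.033) and ITGB4 was not (0.172, and 0.616 after GC correction).

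Of the laminin-binding alpha chains, ITGA3 (chromosome 17, 50055968 to 50090481, plus strand) had an FPKM of 36.2, 21.3 and 21.0 in AGS and 8.68, 19.1 and 20.1 in HGC-27. ITGA6 (chromosome 2, 172427354 to 172506282, plus strand) had 18.0, 19.7 and 20.4 in AGS and 35.9, 16.5 and 14.7 in HGC-27. The 4 NINJ1-labelled libraries lay close together for both genes. The AGS control was above them for ITGA3 and within their range for ITGA6, and the HGC-27 control was below them for ITGA3 and above them for ITGA6. ITGA7, the laminin receptor chain of muscle, was between 0.0691 and 0.803. Together ITGA3, ITGA6 and ITGA7 held 22.7% to 26.2% of the summed alpha chain FPKM in AGS and 26.1% to 33.6% in HGC-27. The ratio of ITGA6 to ITGB4 was 0.340, 0.671 and 0.789 in AGS and 3.22, 0.784 and 0.752 in HGC-27. ITGA6 was thus the lower chain of α6β4 in 5 libraries and ITGB4 in the HGC-27 control.

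The RGD and collagen receptors included the most abundant alpha chain. ITGA5 (ENSG00000161638, chromosome 12, 54395261 to 54419460, minus strand), the fibronectin receptor chain, had an FPKM of 84.8, 67.5 and 71.9 in AGS and 19.2, 54.8 and 63.7 in HGC-27, and was the highest alpha chain in the 5 libraries other than the HGC-27 control. ITGAV, which pairs with β1, β5 and β8, had 24.5, 19.5 and 18.2 in AGS and 17.9, 10.7 and 9.70 in HGC-27. ITGA2 (chromosome 5, 52989326 to 53094779, plus strand), a collagen receptor chain, had 32.8, 40.3 and 44.0 in AGS and 33.5, 18.2 and 18.9 in HGC-27. On these values the controls lay side by side and the NINJ1-labelled libraries apart. Rescaled by TMM factors, ITGA2 stood at 32.3 in the AGS control and 42.0 in the HGC-27 control. The NINJ1-labelled libraries stayed apart (38.0 and 42.0 in AGS against 17.3 and 18.1 in HGC-27). ITGA1 (chromosome 5, 52787896 to 52959210, plus strand), the other collagen receptor chain, had 7.79, 3.79 and 4.21 in AGS and 14.9, 4.41 and 3.52 in HGC-27. In both lines the control was above its 2 NINJ1-labelled libraries, which overlapped between the lines. For ITGA1 6.39% of the exonic bases are shared with other genes, among them PELO on the same strand, and for ITGA6 5.37% with genes on the other strand. Whether the counts used strand is not given in the sources used here.

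Reading each textbook complex by its lowest chain, 8 of 24 integrin pairs had both chains at an FPKM of at least 1 in all 6 libraries: α1β1, α2β1, α3β1, α5β1, α6β1, αvβ1, α6β4 and αvβ5. Of 14 laminin trimers 5 did so, namely laminin-311, laminin-321, laminin-511, laminin-521 and laminin-523, and both counts were the same when FPKM was rescaled by edgeR's TMM factors. For laminin-511 the lowest chain was LAMC1 in AGS (39.1, 34.5 and 32.9), LAMA5 in the HGC-27 control (10.9) and LAMB1 in the NINJ1-labelled HGC-27 libraries (24.7 and 21.9). For laminin-521 it was LAMB2 in every library, at an FPKM of 3.58 to 6.93. Messenger RNA levels do not give the amount of assembled protein. The laminin with the most abundant chains was thus laminin-511, whose usual receptors α3β1, α6β1 and α6β4 all had both chains present, with lowest-chain FPKM of 8.68 to 36.2.

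**Figure D2:**
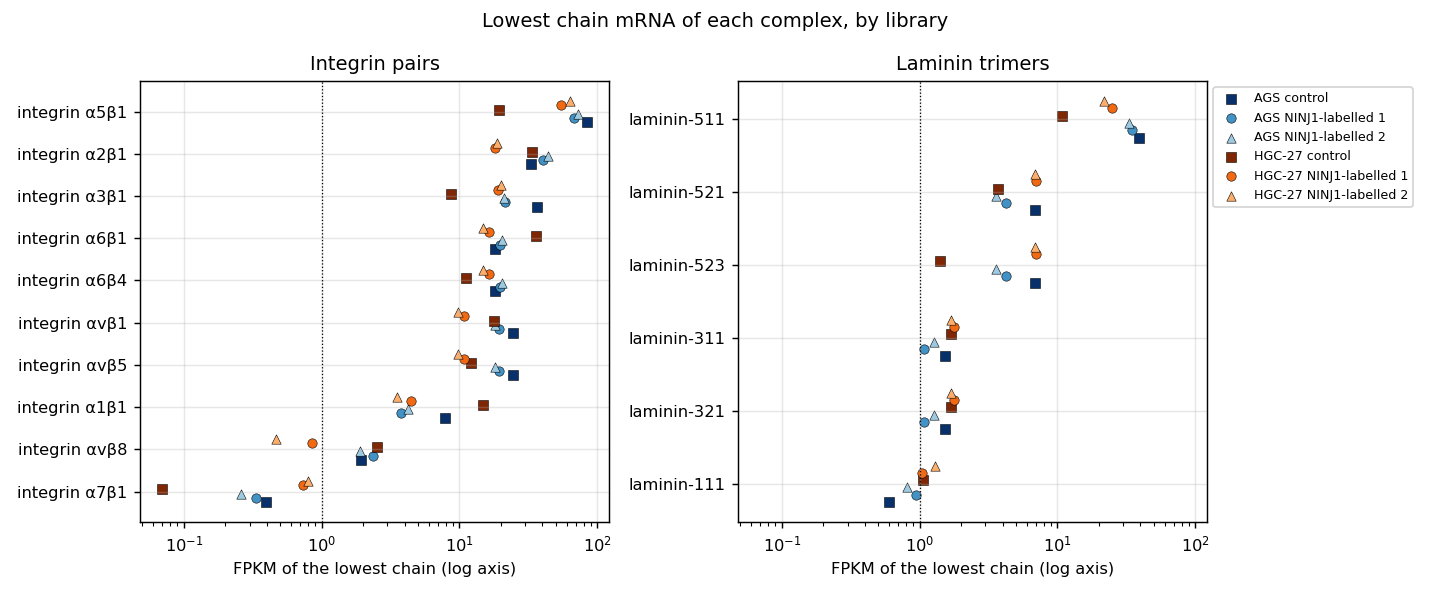
FPKM (log axis) of the lowest chain of 10 integrin pairs and 6 laminin trimers, with 1 point for each of the 6 libraries (squares are controls, blue AGS, orange HGC-27). The dotted line marks an FPKM of 1; α7β1 lies below it in all libraries, and laminin-511 lies between 10.9 and 39.1.

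The remaining genes were at low levels. ITGB8, an αv partner, had 1.92, 2.36 and 1.88 in AGS and 2.50, 0.857 and 0.465 in HGC-27. ITGAE, whose product pairs with β7 on T cells of the gut lining, ran from 2.09 to 3.18, while ITGB7 had counts of 1, 0 and 0 in AGS and 6, 13 and 3 in HGC-27. For ITGB7 42.1% of the exonic bases are shared with ZNF740 on the other strand, and for ITGAE 7.59% are shared with other genes. ITGA2B, the platelet alpha chain, ran from 0.377 to 1.69, and its partner ITGB3 had at most 5 counts. ITGB3 shares 51.6% of its exonic bases with AC068234.1 and ITGB6 20.6% with AC092153.1, both on the same strand. ITGBL1 shares 70.5% with other genes. Whether this sharing lowered the counts of these genes, and so of the pairs that hold β3 or β6, was not tested. Of the leukocyte chains, ITGB2 had an FPKM of at most 0.782, ITGAD of at most 0.439, ITGAM of at most 0.177 and ITGAX of at most 0.179, and ITGAL had 1 count in 1 library. In all, 19 of the 39 genes stayed under an FPKM of 1 in every library, and 9 were not tested because of low counts (ITGA4, ITGA8, ITGA9, ITGA11, ITGAL, ITGB3, ITGB6, ITGBL1 and LAMB4, at most 12 counts). ITGA10, which was tested, was at most 0.155. Where no fragment was counted, a true mean as high as 3 fragments cannot be told from 0.

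In AGS, 8 of the 30 genes tested were lower in the NINJ1-labelled libraries than in the control and none was higher: 4 laminin chains (LAMA5, LAMB2, LAMB3 and LAMC3) and 4 integrin chains (ITGA1, ITGA3, ITGAV and ITGB4). Over all genes 9.30% were called lower and 5.73% higher. The median log2 difference was -0.41 for the 30 genes (-0.40 with ITGB7, whose values lie under 3 counts, left out) and 0.00 for all genes. The test assumes that the single control varies as the NINJ1-labelled pairs do. NINJ1 mRNA was itself lower in these 2 libraries, as given above.

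LAMA5 fell by 1.10 on the log2 scale (SE 0.13, adjusted p = 8.54e-08), LAMB2 by 0.86 (SE 0.16, adjusted p = 0.000248), LAMC3 by 0.64 (SE 0.13, adjusted p = 0.00086) and LAMB3 by 0.53 (SE 0.13, adjusted p = 0.00452). The other chains of laminin-511 did not pass: LAMB1 differed by -0.18 (SE 0.13, adjusted p = 0.351) and LAMC1 by -0.27 (SE 0.13, adjusted p = 0.153). Among laminin receptors, ITGB4 fell by 0.99 (SE 0.13, adjusted p = 5.17e-07) and ITGA3 by 0.83 (SE 0.12, adjusted p = 8.67e-06), whereas ITGA6 differed by 0.10 (SE 0.13, adjusted p = 0.659). The collagen receptor chain ITGA1 fell by 1.02 (SE 0.14, adjusted p = 1.72e-06), and its relative ITGA2 differed by 0.31 (SE 0.13, adjusted p = 0.105). ITGAV fell by 0.43 (SE 0.13, adjusted p = 0.0186). The common beta chain ITGB1 differed by -0.26 (SE 0.12, adjusted p = 0.155) and ITGA5 by -0.34 (SE 0.13, adjusted p = 0.0727).

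All 8 calls in AGS held after GC correction, which added ITGA5, ITGB1, LAMA3 and LAMC1 as lower, for 12 of 30 against 11.2% of all genes called lower. The call for ITGAV was lost without AGS NINJ1-labelled 1 (adjusted p = 0.139) or 2 (0.287), that for LAMB3 likewise (0.136 and 0.0727), and that for LAMC3 without the second of them (0.0843), all by the same edgeR test. Spearman's rho between GC content and the log2 difference was -0.469 over the 30 genes and -0.324 after correction, given as a description of genes from the same libraries. Some cell type markers were lower in AGS too: 3 of 8 epithelial markers tested (ELF3, CLDN7 and KRT8) were lower and 0 higher, with and without GC correction. Over all genes 9.30% were called lower and 5.73% higher, and 11.2% and 6.93% after correction. ELF3 had an FPKM of 13.2, 6.16 and 6.66 and CLDN7 of 12.9, 5.09 and 3.72. Of 4 gastric and intestinal markers tested HNF4A and MUC5AC were lower (HNF4A alone after correction), of 3 fibroblast markers all were (PDGFRB, COL1A1 and DCN), of 3 endothelial markers PECAM1 was and of 3 leukocyte markers 0 were. Several of these calls rest on low levels: MUC5AC had an FPKM of 0.625, 0.459 and 0.203, PECAM1 of 0.453, 0.071 and 0.068, and DCN of 0.039, 0.0 and 0.0. The part of these markers and of GC content in the result was not tested.

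In HGC-27, 19 of 30 genes passed the test against the control, with 11 higher and 8 lower in the NINJ1-labelled pair. Over all genes 63.0% differed (34.0% higher and 29.1% lower), so the share of these genes that differed, 63.3%, was near that of all genes. The median log2 difference was 0.40 for the 30 genes (0.32 with genes at 0 counts in the control set to their bound or left out) and 0.12 for all genes. After GC correction the counts were 1 higher and 16 lower, against 24.1% and 24.7% of all genes.

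The transcripts called higher and lower in HGC-27 did not overlap in GC content, which was 54.5% to 66.4% in the 11 higher and 37.8% to 49.5% in the 8 lower. The GC content of all genes called higher and lower was not compared, so this split is not read as particular to integrins and laminins. Spearman's rho between GC content and the log2 difference was 0.739 over the 30 genes, which come from the same libraries, and 0.149 after correction. The correction removes each library's trend on GC content, so the fall of rho is no independent result. The share of GC content in each gene's difference was not tested beyond that correction. Of the 19 calls, 9 held after it: ITGA5 higher, and ITGA1, ITGA2, ITGA6, ITGAV, ITGB1, ITGB8, LAMB1 and LAMC1 lower. For ITGA3, ITGB4, LAMB2 and LAMB3 the call turned from higher to lower, and for ITGA2B, ITGA7, ITGAD, ITGB2, LAMA5 and LAMC3 it was lost.

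Among laminin chains, LAMA5 rose by 2.76 in HGC-27 before correction (SE 0.15, adjusted p = 1.8e-16) and differed by -0.21 after it (adjusted p = 0.0819). Its transcript had the highest GC content of the 39 genes, 66.4%. LAMC3 rose by 2.20 (SE 0.17, adjusted p = 4.01e-13) and differed by -0.36 after correction (adjusted p = 0.0592). The directions of LAMB3 (0.56 before and -1.03 after) and LAMB2 (0.50 and -1.33) reversed. The values of LAMB1 and LAMC1 barely moved with the correction: LAMB1 fell by 1.05 (SE 0.12, adjusted p = 5.02e-09) and by 1.13 after it, and LAMC1 fell by 1.00 (SE 0.12, adjusted p = 1.14e-08) and by 0.97 after it. Before correction LAMA5 thus changed in the direction opposite to LAMB1 and LAMC1. After it the sign was the same for all of them, and LAMA5 was not called.

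Among laminin receptors, ITGB1 fell by 1.46 in HGC-27 (SE 0.12, adjusted p = 1.7e-12) and by 0.74 after correction, and ITGA6 fell by 1.60 (SE 0.13, adjusted p = 5.91e-13) and by 1.03 after it. ITGA3 (0.78 before and -1.24 after) and ITGB4 (0.47 and -1.98) changed direction. Among the other receptors, ITGA1 fell by 2.30 (SE 0.13, adjusted p = 5.41e-16) and by 1.57 after correction, ITGA2 by 1.25 and 0.54, ITGAV by 1.21 and 0.46, and ITGB8 by 2.32 and 1.59. The fibronectin receptor chain ITGA5 rose by 1.23 (SE 0.14, adjusted p = 2.14e-09) and by 0.39 after correction (adjusted p = 0.00212). It was the only one of the 30 genes called higher in HGC-27 both with and without the correction.

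**Figure D3:**
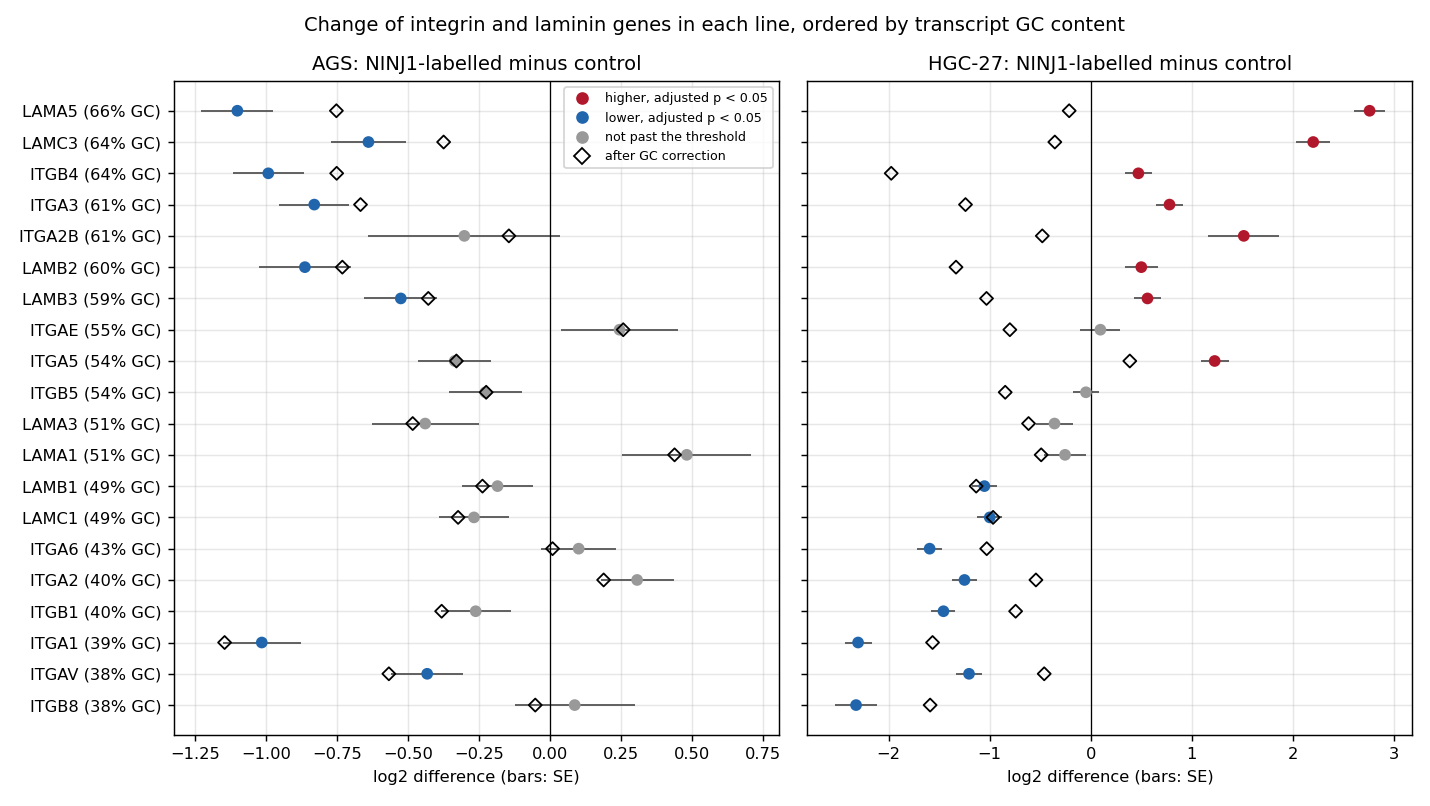
Log2 difference of the NINJ1-labelled libraries from their control in AGS (left) and HGC-27 (right) for the 20 genes with an FPKM of at least 1 in some library, from the lowest GC content at the bottom to the highest at the top. Filled points with SE bars are from edgeR (red higher, blue lower, grey not past an adjusted p of 0.05), and open diamonds are after GC correction; LAMA5 goes from 2.76 to -0.21 in HGC-27, and ITGA1 is below 0 in both lines with either value. The horizontal scales of the panels differ.

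**Figure D4:**
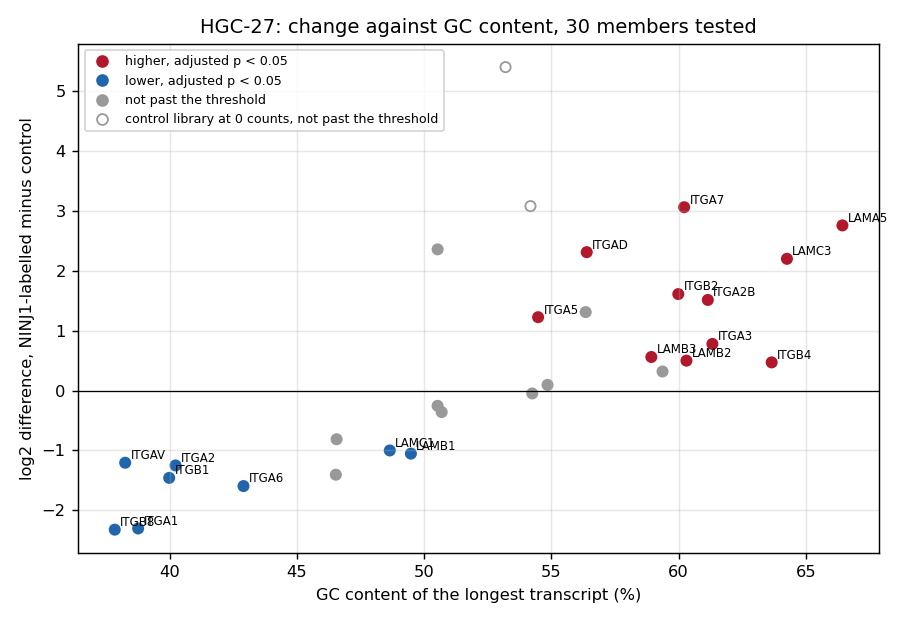
Log2 difference of the NINJ1-labelled libraries from their control in HGC-27 against the GC content of each gene's longest transcript, for the 30 genes tested. Red points were called higher, blue points lower and grey points neither, and open points had no count in the control; no red point lies under 54.5% GC and no blue point above 49.5%.

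Compared over the lines, ITGA1 and ITGAV were called lower in both lines, and ITGA3, ITGB4, LAMA5, LAMB2, LAMB3 and LAMC3 were called lower in AGS and higher in HGC-27. With the GC correction ITGA5 alone had opposite calls (-0.33 in AGS and 0.39 in HGC-27), and 9 genes were lower in both lines: ITGA1, ITGA3, ITGAV, ITGB1, ITGB4, LAMA3, LAMB2, LAMB3 and LAMC1. Among all genes 9.30% were called lower in AGS and 29.1% in HGC-27, and 11.2% and 24.7% after GC correction. The share of all genes called in both lines was not counted, so these numbers are not read as particular to integrins and laminins. Fitted over both lines with line as a term, edgeR called 0 of the 30 genes and 0% of all genes, with 5 of the 30 at an unadjusted p under 0.05 against 2257 of the 17617 genes, and DESeq2 called 1 of the 30. After GC correction ITGA1 (-1.36), ITGA3 (-0.96) and LAMB2 (-1.04) were called lower, against 2.06% of all genes called. Leaving out a control makes this the comparison within the other line: 19 were called without the AGS control and 8 without the HGC-27 control.

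The difference between the lines in these contrasts, AGS minus HGC-27, passed for 20 of the 30 genes against 54.2% of all genes. It was 9 higher and 11 lower, and 14 higher and 2 lower after GC correction, against 35.0% of all genes called. The largest in size among genes with an FPKM of at least 5 was that of LAMA5 at -3.86 (SE 0.19, adjusted p = 1.09e-16), which was -0.54 after correction and still called. For 10 genes the call held after correction: ITGA1, ITGA2, ITGA5, ITGA6, ITGB1, ITGB8, LAMA1, LAMA5, LAMB1 and LAMC1. ITGA2 stood 1.56 higher in AGS by this contrast (SE 0.18, adjusted p = 8.68e-09) and 0.73 after correction, and ITGA5 -1.56 (SE 0.19, adjusted p = 1.25e-08) and -0.72.

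The 4 NINJ1-labelled libraries compare the lines without either control. There 17 of 30 genes differed, 9 higher in AGS and 8 higher in HGC-27, against 40.2% of all genes (20.2% and 20.0%), and the median difference was 0.10 for the 30 genes and -0.01 for all. All 17 calls held after GC correction, which added ITGA3 and ITGA5 as higher and LAMA1 as lower in AGS, for 20 genes against 43.7% of all (21.9% higher and 21.8% lower). Spearman's rho between GC content and this difference was -0.463 over the 30 genes and -0.402 after correction, and the part of GC content in the result was not tested beyond that correction. The beta laminin chains went opposite ways: LAMB1 was 1.28 higher in AGS (SE 0.11, adjusted p = 5.31e-12), while LAMB3 was lower there by 1.24 (log2 difference -1.24, SE 0.11, adjusted p = 2.05e-11), as was LAMB2 (-0.83, SE 0.14, adjusted p = 6.75e-06). LAMA5 was lower in AGS (-1.09, SE 0.11, adjusted p = 4.24e-10), and LAMC3 was higher (0.78, SE 0.11, adjusted p = 1.05e-06). LAMC1 differed by 0.09 (SE 0.10, adjusted p = 0.524). LAMA3 was lower in AGS (-0.56).

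Of the 10 integrin chains that differed, 7 were higher in AGS. ITGA2 was higher by 1.18 (SE 0.11, adjusted p = 4.52e-11), ITGAV by 0.88 (SE 0.11, adjusted p = 3.94e-08), ITGB5 by 0.86 (SE 0.11, adjusted p = 5.11e-08), ITGB1 by 0.60 (SE 0.10, adjusted p = 1.05e-05) and ITGB8 by 1.68 (SE 0.19, adjusted p = 5.63e-09). With the calls of ITGB4 and ITGA6 that follow, both chains of α2β1, α6β1, α6β4, αvβ1, αvβ5 and αvβ8 were thus among the genes higher in AGS. The chains of α6β4 differed less, with ITGB4 higher by 0.44 (SE 0.11) and ITGA6 by 0.36 (SE 0.11), and ITGA3 differed by 0.11 (SE 0.10, adjusted p = 0.444). ITGA1 differed by 0.01 (SE 0.12, adjusted p = 0.963). Lower in AGS were ITGA2B (-1.03), ITGA7 (-1.37), LAMA4 (-2.29, on 6 and 1 counts against 23 and 17) and ITGB7 (on 0 and 0 counts against 13 and 3).

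DESeq2 called 13 of these 17 genes, against 2418 higher and 2386 lower of all 17617 genes. By DESeq2 ITGA7 (adjusted p = 0.0643), ITGA2B (0.0733) and LAMA4 (0.104) did not pass, and ITGB7 was not called. By limma on log2(FPKM + 1), ITGA2B (adjusted p = 0.075) and LAMA3 (0.106) did not pass. Some of the 17 calls rested on 1 library, by the same edgeR test. ITGA6 was lost without AGS NINJ1-labelled 1 (adjusted p = 0.0735) or 2 (0.159), ITGB4 and LAMA3 without the former (0.111 and 0.15), LAMA4 without the latter (0.151) and ITGB7 without either (0.0672 and 0.0698). Without HGC-27 NINJ1-labelled 1, which had 13 counts against 3 in the other, ITGB7 had too few counts to be tested, so that 29 genes were. ITGA2B was lost without HGC-27 NINJ1-labelled 2 (0.0691). Over all 6 libraries, with treatment as a term, ITGB5 was called, higher in AGS by 0.92 (SE 0.17, adjusted p = 0.033), and no other gene, against 6.14% of all genes (3.27% higher). It was lost without any of the 4 NINJ1-labelled libraries (adjusted p = 0.152 to 0.222) and with the replicate number as a block (0.169). After GC correction 11 genes were called in this comparison, against 22.3% of all.

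**Figure D5:**
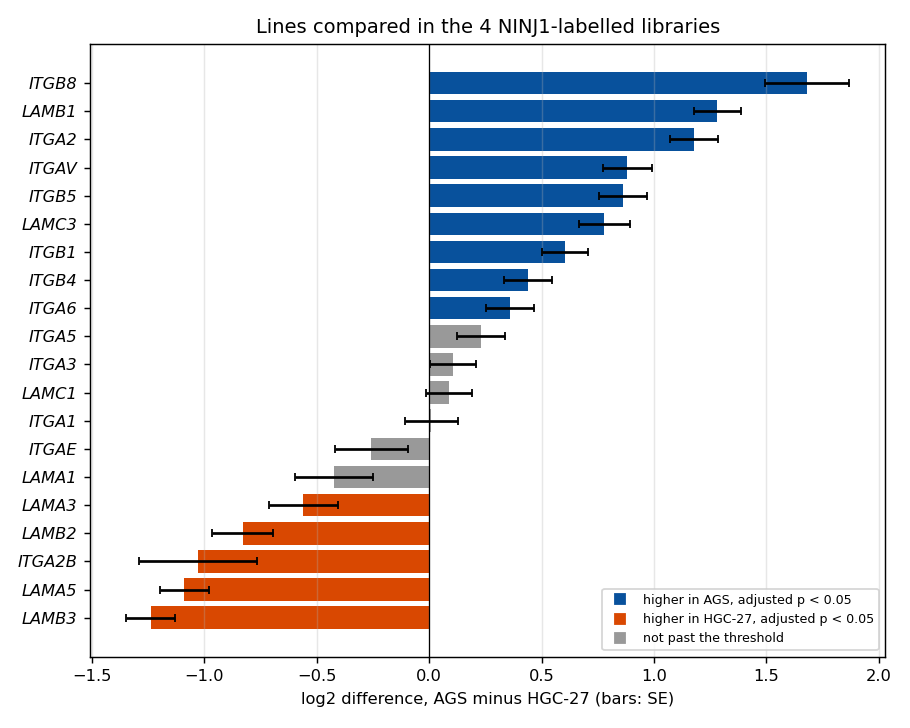
Log2 difference between AGS and HGC-27 in the 4 NINJ1-labelled libraries for the 20 genes with an FPKM of at least 1 in some library, with SE bars. Blue bars are higher in AGS, orange bars higher in HGC-27 and grey bars not past an adjusted p of 0.05; LAMB1 stands at 1.28 and LAMB3 at -1.24.

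Partners of the laminins in the basement membrane and the hemidesmosome were counted from a list of 18 genes, 17 of them tested. In AGS 11 were lower in the NINJ1-labelled libraries and 1 higher, against 9.30% and 5.73% of all genes, with a median log2 difference of -0.83. HSPG2 (perlecan, a heparan sulfate proteoglycan) had an FPKM of 37.4, 14.2 and 12.9 and fell by 1.52 (SE 0.12, adjusted p = 4.33e-11). COL4A5, a collagen IV chain, fell by 1.75 (SE 0.16, adjusted p = 6.25e-10), and AGRN (agrin, which binds laminins) by 1.27 (SE 0.13, adjusted p = 5.12e-09). The gene that rose was PLEC, the plakin that ties ITGB4 to keratins, with an FPKM of 64.2, 96.0 and 102 and a difference of 0.57 (SE 0.14, adjusted p = 0.00313), while ITGB4 itself fell. Both held after GC correction (PLEC 0.95 and ITGB4 -0.75).

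In HGC-27 the same list had 8 higher and 4 lower, 12 of 17, against 34.0% and 29.1% of all genes (63.0% in either direction), which is near the background. After GC correction it had 2 higher and 10 lower, against 24.1% and 24.7%. AGRN had an FPKM of 3.63, 48.9 and 49.9 there, a difference of 3.37 (SE 0.16) that was 0.19 after correction (adjusted p = 0.173). COL7A1, the collagen of anchoring fibrils, went from 2.68 (SE 0.15) to 0.01. DST, which codes for another hemidesmosome plakin, fell by 1.81 (SE 0.12, adjusted p = 2.27e-14) and by 1.16 after correction. Between the lines in the NINJ1-labelled libraries 5 were higher in AGS and 3 lower, against 20.2% and 20.0% of all genes. NID2 (nidogen-2, which links laminin to collagen IV) had an FPKM of 2.74 and 2.96 in AGS against 0.194 and 0.146 in HGC-27, a log2 difference of 4.06 (SE 0.25, adjusted p = 3.33e-15), and its relative NID1 was at most 0.024. COL4A1 was higher by 1.17 (SE 0.11) and COL4A2 by 0.83 (SE 0.11), the direction of LAMB1 and not of LAMA5.

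Ligands of the other integrins were counted from 25 symbols, 23 of them found and 17 tested. In AGS 7 were lower and 0 higher, against 9.30% and 5.73% of all genes, with a median of -0.61. In HGC-27 7 were higher and 6 lower, against 34.0% and 29.1% of all genes, and after GC correction 5 and 7, against 24.1% and 24.7%. Between the lines 7 were higher in AGS and 7 lower, against 20.2% and 20.0%. Fibronectin (FN1), the ligand of α5β1, had the values given above: it fell in AGS by 1.61 (SE 0.20, adjusted p = 4.17e-07) and in HGC-27 by 1.16 (SE 0.13, adjusted p = 3.63e-09; 0.55 after correction), and it was lower in AGS than in HGC-27 by a log2 difference of -4.37 (SE 0.15, adjusted p = 1.14e-21). CYR61, a matricellular ligand of αv integrins, had an FPKM of 7.24, 40.4 and 39.5 in HGC-27 and rose there by 2.07 (SE 0.16, adjusted p = 8.21e-13) and by 1.87 after correction. The fibronectin receptor chain ITGA5 differed between the lines by 0.23 (adjusted p = 0.0816). LTBP1, a latent TGF-beta binding protein, was higher in AGS by 1.83 (SE 0.15, adjusted p = 2.07e-12), together with ITGAV, ITGB5 and ITGB8. COL1A1 fell by 1.36 in AGS (SE 0.16, adjusted p = 8.65e-08), as the fibroblast marker PDGFRB did from an FPKM of 3.90 to 0.777 and 0.707; COL1A1 is on the fibroblast list too, whose summed FPKM ran from 3.28 to 10.9 in AGS and from 1.10 to 5.82 in HGC-27, and its part in the result was not tested. VCAM1 and ICAM2, ligands of leukocyte integrins, had no count in any library.

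Of 28 focal adhesion genes, which link integrins to actin, 27 were tested. In AGS 2 were higher (PXN by 0.45, SE 0.13, adjusted p = 0.0212, and ACTN1 by 0.40, SE 0.13, adjusted p = 0.0421) and 6 lower, against 5.73% and 9.30% of all genes, with a median of 0.07. The lower ones included the tensins TNS1 (-0.98, SE 0.15, adjusted p = 1.23e-05), TNS2 (-1.54, SE 0.18, adjusted p = 1.13e-07), TNS3 and TNS4. The integrin activators TLN1 (talin, 26.1, 30.4 and 31.1) and FERMT2 (kindlin-2, 14.3, 15.6 and 15.6) did not pass there. In HGC-27 11 were higher and 8 lower, 19 of 27, against 34.0% and 29.1% of all genes (63.0% in either direction), which is near the background. After GC correction 6 were higher and 13 lower, against 24.1% and 24.7%. ZYX (zyxin) had an FPKM of 3.60, 44.0 and 51.8, a difference of 3.34 (SE 0.17) that was 0.64 after correction (adjusted p = 0.000149). Between the lines in the NINJ1-labelled libraries 8 were higher in AGS and 6 lower, against 20.2% and 20.0% of all genes, with TNS1 higher in AGS by 2.78 (SE 0.15, adjusted p = 6.01e-17).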

How the data were processed

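Each library has 1 deposited table with a raw count and the authors' FPKM, named in the file headers, for 51103 Ensembl genes. HISAT2, HTSeq 0.13.5 and GRCh38 are given in the submitters' processing notes, and kit and harvest in the labels' protocols. The annotation, strand setting and HISAT2 version are not given in the sources used here. For all 39 genes the FPKM implies the union exon length of GENCODE release 29 (within 4.38e-06%), which also gave positions and GC content of the longest transcript.

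Counts were tested with edgeR 4.0.16 (R 4.3.3): filterByExpr with a minimum count of 10 kept 17617 genes, TMM scaling, two-sided quasi-likelihood F tests with a mean for each line and treatment (an additive line or treatment term for the comparisons over all 6 libraries), and Benjamini-Hochberg adjusted p under 0.05. The SE is the log2 difference divided by the root of F. The procedure was tested on simulated data with known changes. These had no dependence on GC content and controls that varied as the other libraries did, so the simulation does not test those points. In the GC correction, a lowess trend of each library's log counts on GC content (genes with a mean count of at least 50, span 0.3) was passed to edgeR as an offset. A smaller rho with GC content after this step is no independent result. Alternatives were DESeq2 1.42.0, its size factors, no filter, lines as in the titles, the 4 libraries of undisputed line, replicate block, limma 3.58.1 on log2(FPKM + 1) and log2(FPKM + 0.1), and each library left out. Every gene with an FPKM of at least 5 in some library is given by library. Other genes are given by range or when past the threshold, and of partner lists up to 3 by smallest p, while PLEC, NID1, PXN, ACTN1, TNS3, TLN1, FERMT2, PDGFRB and FN1 in HGC-27 were chosen after their values were seen. Genes, lists, complexes and tests were chosen with earlier results of these data known. Depth sets the precision: a count of 0 allows a mean of up to 3, for counting error only. The values of 1 laminin chain are not reported here.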

Additional observations from a re-analysis of the deposited data

Results flagged for a closer look

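The contrast of NINJ1-labelled against control libraries differed between AGS and HGC-27, by a test of the difference itself (edgeR's quasi-likelihood test, AGS minus HGC-27, log2 scale), for 20 genes, against 54.2% of all genes tested. Higher in AGS by this contrast were the laminin chains LAMA1 (0.74), LAMB1 (0.87) and LAMC1 (0.73) and the integrin chains ITGA1 (1.29), ITGA2 (1.56), ITGA6 (1.70), ITGAV (0.77), ITGB1 (1.20) and ITGB8 (2.41). Lower were the laminin chains LAMA5 (-3.86), LAMB2 (-1.36), LAMB3 (-1.09) and LAMC3 (-2.84) and the integrin chains ITGA2B (-1.81), ITGA3 (-1.61), ITGA5 (-1.56), ITGA7 (-3.52), ITGAD (-4.29), ITGB2 (-2.43) and ITGB4 (-1.46). The 9 higher genes had a GC content of 37.8% to 50.5% and the 11 lower ones of 54.5% to 66.4%. The GC content of all genes with such calls was not compared, so this split is not read as particular to these genes. After GC correction 10 calls held, 4 turned round (ITGA3, ITGB4, LAMB2 and LAMB3) and 6 were lost. Each line has 1 control, so the contrast and whatever else set that control apart cannot be told apart. ITGA7, ITGAD and ITGB2 rest on at most 80 counts in any library, and the call for LAMA1 was lost without 3 of the 4 NINJ1-labelled libraries (adjusted p = 0.051 to 0.145).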

How the results depend on the processing

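With the lines of the titles, the number of integrin and laminin genes called was 0 in AGS, 2 in HGC-27 (ITGA1 and ITGA6, lower), 0 for the difference between the lines, 0 for AGS against HGC-27 over all 6 libraries and 0 in the NINJ1-labelled libraries. LAMB3 in AGS then became 0.24; the difference between the lines became -0.11 for ITGAV, -0.49 for LAMB1 and 0.19 for LAMB3; and AGS against HGC-27 in the NINJ1-labelled libraries became -0.082 for ITGA2, 0.46 for ITGA2B, -0.10 for ITGA6, 0.20 for ITGA7, -0.077 for ITGB1, 0.16 for LAMA5, -0.08 for LAMB1, 0.088 for LAMB2 and 0.039 for LAMB3. The 4 libraries of undisputed line gave 0 calls between lines, and 0 over both lines, where the main count is 0 too.

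GC correction reversed in HGC-27 ITGA2B (-0.48), ITGA3 (-1.24), ITGB2 (-0.17), ITGB4 (-1.98), LAMA5 (-0.21), LAMB2 (-1.33), LAMB3 (-1.03) and LAMC3 (-0.36), and in the difference between the lines ITGA2B (0.34), ITGA3 (0.57), ITGAV (-0.11), ITGB4 (1.23), LAMB2 (0.60) and LAMB3 (0.60). It gave 3 calls over both lines and 11 between the lines over all 6 libraries. DESeq2 gave 1 and 4 of these, and limma on log2(FPKM + 1) and on log2(FPKM + 0.1) gave 2 and 2 between the lines over all 6 libraries and 5 and 5 in AGS, with a shift of all genes' median in HGC-27 from 0.12 to 0.32 and 0.41.

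Leaving out 1 library gave 5 to 14 calls in AGS, 19 to 21 in HGC-27, 0 to 19 over both lines, and 0 to 18 between the lines over all 6 libraries. AGS had the fewest calls without AGS NINJ1-labelled 2 and the most without either HGC-27 NINJ1-labelled library. Without either of the latter, ITGA2 was called higher in AGS than in its control, so that not every call was lower. The cause was not tested. Without either control, 18 were called between the lines. With the replicate number as a block, 0 were called between the lines over all 6 libraries and 19 in the NINJ1-labelled libraries, against 1 and 17. Same-numbered libraries did not deviate together (correlation 0.0576 over 11850 genes), so the numbers are not read as a pairing. DESeq2's size factors and no filter on low counts kept all 6 counts within 1.5 times the main one. Depth limits the low genes, such as ITGB7 and ITGAD.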

Other observations

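In AGS the alpha to beta ratio of summed integrin FPKM was 0.938, 1.01 and 1.05 (the control, then the NINJ1-labelled pair), and in HGC-27 it was 0.715, 1.11 and 1.23. The ratio of the collagen receptor chains ITGA2 to ITGA1 was 4.21, 10.6 and 10.4 in AGS and 2.26, 4.13 and 5.36 in HGC-27, so that the control had the lowest ratio in each line. ITGA5 held 38.3% to 40.7% of the summed alpha chain FPKM in AGS, 14.5% in the HGC-27 control and 42.5% and 46.5% in the NINJ1-labelled HGC-27 libraries. Of 8 epithelial markers tested in HGC-27, 4 were called higher and 4 lower, against 34.0% and 29.1% of all genes. After GC correction 2 were higher and 5 lower, against 24.1% and 24.7%. KRT8, KRT18, EPCAM and CDH1 (FPKM at most 0.454) were lower with and without the correction, and CLDN4 and CLDN7 were higher. KRT7 turned from higher to lower, and the call for ELF3 was lost.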
